A study of Mus musculus with 12 samples.

Results

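Genes of nutrient uptake and glycolysis were followed through the arrays of nucleus pulposus (NP) RNA: *Slc2a1*, *Slc38a4* and *Eno2*. They are 3 of the 37 probe sets to which the deposited files give a single gene symbol, and of 22206 probe sets on the array. They were picked from the authors' table of probe sets called between the genotypes on these same arrays, where the call was a 2-fold change at an unadjusted p under 0.05. Their genotype difference is therefore given as a description. By limma, 1 of 22206 probe sets passed an adjusted p of 0.05 for this difference, the targeted *Slc2a1*. Neither *Eno2* (adjusted p = 0.482 from limma) nor *Slc38a4* (0.929) passed. Covariation of the 3 genes from mouse to mouse within a genotype was not part of that choice and was tested.

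The 6 WT mice carried floxed *Glut1* alleles (Glut1f/f) without Cre, and the 6 cKO mice carried the same alleles with K19Cre, an inducible Cre driven from the keratin 19 locus, so all 12 mice share the floxed gene. Mice of both genotypes received tamoxifen, 100 μg per g body weight, on 3 days at 3 months of age and were studied at 9 months. Recombination is limited to cells that expressed keratin 19 at injection, so other cells of the scooped tissue keep an intact *Slc2a1*. RNA of each mouse was hybridized to 1 Mouse Clariom S array, and every value below is a log2 signal per probe set after the authors' joint normalization (SST-RMA) unless another scale is named. Array medians lay between 6.55 and 6.66, and the precision is limited by the number of arrays. Probe sets with a Y in the chromosome part of their identifier (Y-coded below) had a mean signal that set 7 arrays (4 WT and 3 cKO, 7.46 to 8.70) apart from the 5 others (5.43 to 5.51), and the labels give no sex. None of the defining NP markers has a probe set named in the files, so the labelled tissue could not be checked against them. *Slc2a1* is a marker of NP cells but is expressed in nearly all tissues, so its high signal is no such check.

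NP cells live in an avascular, hypoxic tissue and draw their ATP mainly from glycolysis. Glucose enters through facilitative transporters, of which GLUT1, the product of *Slc2a1*, is the best known in these cells, and hypoxia-inducible factors (HIF) raise the transcription of *Slc2a1* and of many glycolytic genes. *Eno2* encodes the gamma, or neuronal, form of enolase, which converts 2-phosphoglycerate to phosphoenolpyruvate late in glycolysis. *Slc38a4* encodes SNAT4, a sodium-coupled transporter of neutral amino acids, and in mice it is an imprinted gene expressed mainly from the paternal allele.

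*Slc2a1* lies on chromosome 4 from 119108745 to 119137330, *Slc38a4* on chromosome 15 from 96994816 to 97055956 and *Eno2* on chromosome 6 from 124760053 to 124769673 (RefSeq, GRCm38.p6). The genes thus lie on 3 different autosomes. Their promoter windows, 250 bases before to 50 bases after the annotated start, are shown because HIF can act on such windows through ACGTG. This is a form of the core of the hypoxia response element, and other forms were not searched. Capitals mark ACGTG and the TATA box TATAAA, each searched on both strands. They are chr4:119108495-119108794 (plus strand), chr15:97055907-97056206 (minus strand, the first of 3 windows listed for this gene) and chr6:124769624-124769923 (minus strand), all 5′ to 3′ on the strand of the gene.
Slc2a1: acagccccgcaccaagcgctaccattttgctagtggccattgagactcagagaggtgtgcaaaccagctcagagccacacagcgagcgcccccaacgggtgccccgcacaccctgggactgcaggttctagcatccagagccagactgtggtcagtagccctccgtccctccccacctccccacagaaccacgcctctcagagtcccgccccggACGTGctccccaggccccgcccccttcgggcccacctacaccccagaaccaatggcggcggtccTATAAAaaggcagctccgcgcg
Slc38a4: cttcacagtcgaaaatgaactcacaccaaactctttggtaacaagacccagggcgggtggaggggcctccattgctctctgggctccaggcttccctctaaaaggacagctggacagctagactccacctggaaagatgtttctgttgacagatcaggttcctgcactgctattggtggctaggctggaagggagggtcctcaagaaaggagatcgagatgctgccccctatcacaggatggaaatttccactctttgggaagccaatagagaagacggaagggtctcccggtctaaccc
Eno2: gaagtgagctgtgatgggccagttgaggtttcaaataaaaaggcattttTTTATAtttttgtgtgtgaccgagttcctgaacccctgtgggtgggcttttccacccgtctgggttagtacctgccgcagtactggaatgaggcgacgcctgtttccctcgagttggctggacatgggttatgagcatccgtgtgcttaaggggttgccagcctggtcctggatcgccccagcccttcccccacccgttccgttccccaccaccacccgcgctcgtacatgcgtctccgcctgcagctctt

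In the *Slc2a1* window ACGTG began at position -36 from the annotated start and TATAAA at position 29. The *Eno2* window held TATAAA on the opposite strand only, at -201, and no ACGTG, and the *Slc38a4* window held neither motif. Over 32851 promoter windows of this length, 19.6% held ACGTG and 13.6% held TATAAA, with the motifs counted on both strands. The matches describe letters in these windows, and no match says nothing of the factors.

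*Slc2a1*, the targeted gene, was measured first. Its log2 signal was 19.09, 18.86, 19.23, 19.23, 19.24 and 19.31 in WT mice 1 to 6. It was 18.10, 17.76, 18.31, 17.77, 17.93 and 17.95 in cKO mice 1 to 6. Every cKO mouse lay below every WT mouse, a pattern shared by 0.126% of all probe sets. The WT mean was 19.16 ± 0.16 and the cKO mean 17.97 ± 0.21 (both SD, n = 6), a log2 difference of -1.19. On the linear scale, cKO mice 2 and 4 kept 37.7% and 38% of the mean WT signal and cKO mouse 3 kept 55.2%. By qRT-PCR the authors reported a larger loss of this mRNA in NP tissue of this model. The share of array signal therefore need not be the share of transcript left. In bulk RNA fewer NP cells and less transcript per cell cannot be told apart, and the exons covered by the probes are not given in the sources used here.

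*Slc38a4* was higher in most but not all cKO mice. Its log2 signal was 9.44, 11.04, 9.01, 9.53, 9.78 and 9.69 in WT mice 1 to 6. It was 11.75, 10.65, 11.61, 11.35, 11.45 and 9.15 in cKO mice 1 to 6. cKO mice 1, 3, 4 and 5 exceeded every WT mouse. The ranges overlapped widely, since WT mouse 3 alone lay below every cKO mouse and the other 5 WT mice lay within the cKO range, whose lower end was set by cKO mouse 6. cKO mice 2 and 6 lay within the WT range, whose upper end was set by WT mouse 2. The means were 9.75 ± 0.69 and 10.99 ± 0.98 (both SD, n = 6), a difference of 1.25 or 2.37-fold. The size depended on the average used, since Tukey biweight averages, which discount values distant from the rest of a group, gave 1.86 or 3.62-fold.

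*Eno2* was higher in cKO as well. Its log2 signal was 7.44, 7.43, 8.50, 9.35, 7.14 and 6.85 in WT mice 1 to 6. It was 9.80, 9.12, 10.35, 9.68, 9.45 and 9.13 in cKO mice 1 to 6. WT mouse 4 alone reached the cKO range, above cKO mice 2 and 6, and the other 5 WT mice lay below every cKO mouse. The share of probe sets with at least 4 of 6 cKO mice above every WT mouse, as *Eno2* and *Slc38a4* had, was 2.21%. The means were 7.79 ± 0.95 and 9.59 ± 0.47 (both SD, n = 6), a difference of 1.80 or 3.49-fold. *Eno2* was also higher on the arrays with high Y-coded signal, with means of 8.18 (n = 4) against 6.99 (n = 2) in WT and 9.76 (n = 3) against 9.42 (n = 3) in cKO. With these 2 groups of arrays as a block the genotype difference of *Eno2* was 1.93.

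**Figure D1:**
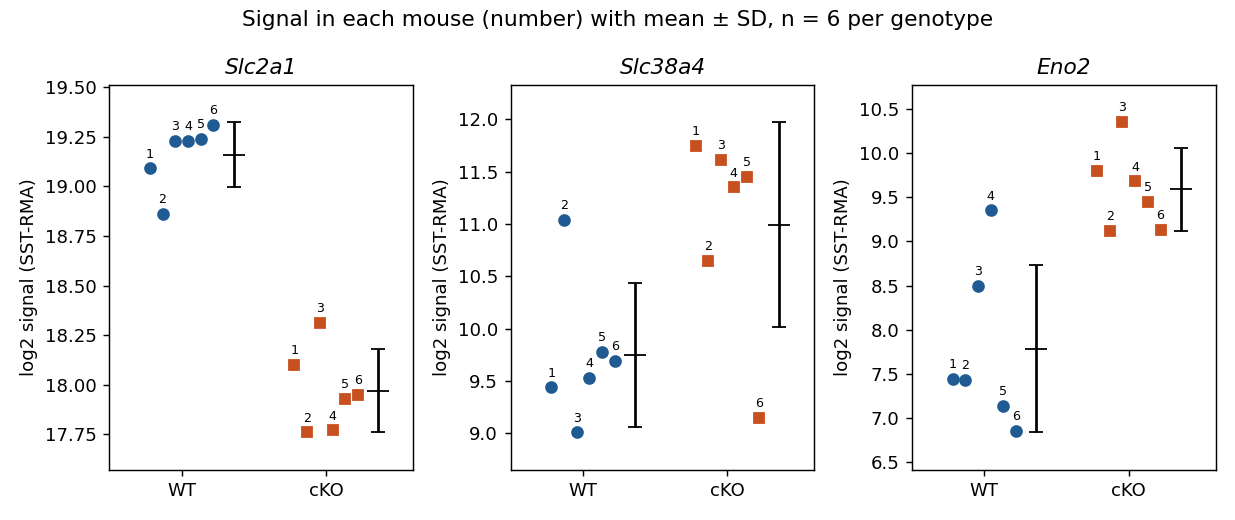
Log2 signal of each gene in every mouse (points, numbered by mouse) with the mean and SD of 6 mice per genotype beside them, each panel on its own vertical scale. The *Slc2a1* values do not overlap, whereas for *Slc38a4* 5 WT mice lie above the lowest cKO mouse (mouse 6) and for *Eno2* WT mouse 4 lies in the cKO range.

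The genes differed in where their signals lay on the array. A rank counts probe sets from the brightest, and since probe sets differ in their probes it gives a position, not an amount of transcript relative to other genes. *Slc2a1* ranked 4 to 9 among 22206 probe sets on WT arrays and 24 to 51 on cKO arrays, so it stayed within the brightest 0.23% after deletion. Its WT values were close to the brightest signal of any probe set on the WT arrays, 19.61 to 19.72, and whether signals at this end of the scale are compressed, which would bear on the WT level, its spread and the shares kept in cKO, was not tested. *Slc38a4* ranked 3316 to 5815 in WT and 2409 to 5957 in cKO, the latter being cKO mouse 6. *Eno2* ranked 5586 to 10455 in WT, between the upper 25.2% and 47.1%, and 4107 to 6004 in cKO. By the absolute genotype difference, *Eno2* came 4th, *Slc38a4* came 28th and *Slc2a1* came 30th of all probe sets, positions that the choice of the genes fixes in part.

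**Figure D2:**
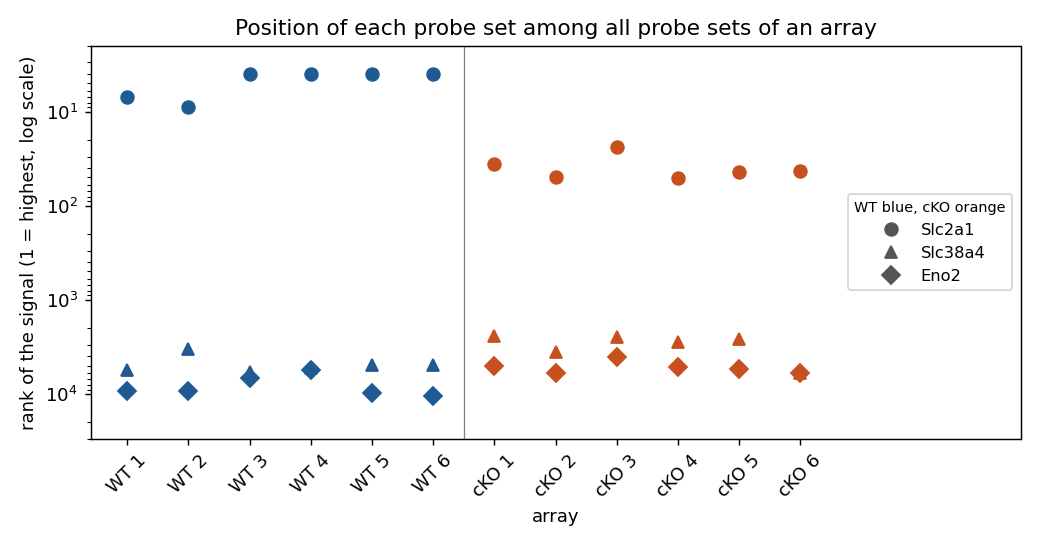
Rank of each gene's signal among all 22206 probe sets of an array (vertical log axis, 1 is the brightest) for 6 WT and 6 cKO arrays, with circles for *Slc2a1*, triangles for *Slc38a4* and diamonds for *Eno2*. *Slc2a1* moved from ranks 4 to 9 in WT to ranks 24 to 51 in cKO.

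The genes differed in their spread between mice. The SD of *Slc2a1* was smaller than that of most probe sets in WT, with 8.65% of probe sets below it, and lay at 34.1% in cKO. *Slc38a4* and *Eno2* were among the more variable probe sets, with SDs above those of 95.7% and 98.5% of probe sets in WT and of 99% and 92.7% in cKO. Choosing genes by a 2-fold change between the genotypes may bear on these positions, which was not tested. The SD of *Eno2* was larger in WT (0.95) than in cKO (0.47) and that of *Slc38a4* was larger in cKO (0.98) than in WT (0.69), and these differences of SD were not tested.

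Whether *Eno2* and *Slc38a4* followed the remaining *Slc2a1* signal was asked within each genotype. Pearson's r and Spearman's rho were computed for 9 relations, the 3 pairs of genes in WT, in cKO and pooled after centring each genotype on its mean. Exact two-sided permutation tests over 720 pairings were used for 6 mice, where the smallest possible p is 0.00278, and the Benjamini-Hochberg adjustment ran over the 9 relations. None of the 9 passed an adjusted p of 0.05 by r or by rho.

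Among cKO mice *Eno2* had a positive r with *Slc2a1* that did not pass the test. The r was 0.78 (exact permutation p = 0.0667, adjusted p = 0.383) and rho was 0.77 (exact permutation p = 0.103, adjusted p = 0.462) over 6 mice. cKO mouse 3 had the highest value of both genes and mouse 1 the second highest, while mouse 2 had the lowest of both. Without the 2 mice farthest from the median *Slc2a1* value, cKO mice 3 and 2, r was 0.12 over a narrower *Slc2a1* range. Without cKO mouse 3 alone it was 0.40, the lowest of the single omissions, so the relation rests in large part on that mouse. Without cKO mouse 2 alone it was 0.71, and without cKO mouse 4 it was 0.94. An r at least as far from 0 as 0.78 was found for 4.29% of the other probe sets.

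In WT, where *Slc2a1* ran from 18.86 to 19.31, r and rho differed in sign. The r was 0.13 and rho was -0.46 (exact permutation p = 0.842 and 0.394, adjusted p = 0.849 and 0.592), and without WT mice 2 and 1, the farthest from the median *Slc2a1* value, r was -0.71. WT mouse 4 had the highest *Eno2* value at a middling *Slc2a1* value, and WT mouse 6 had the lowest *Eno2* and the highest *Slc2a1*. Pooled over 12 mice, r was 0.34 and rho was 0.16 (permutation p = 0.264 and 0.653, adjusted p = 0.594 and 0.84), and r was 0.06 without WT mouse 2 and cKO mouse 3. With each genotype further split by Y-coded signal and every split centred on its own mean, the pooled r was 0.68 (permutation p = 0.0703, adjusted p = 0.211 over the 3 pairs). No split held 6 mice, so r was not computed within one.

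*Slc38a4* and *Slc2a1* gave opposite signs of r in the genotypes. In WT, r was -0.78 but rho was -0.03 (exact permutation p = 0.128 and 0.994, adjusted p = 0.383 and 0.994). WT mouse 2 had both the lowest *Slc2a1* (18.86) and the highest *Slc38a4* (11.04), and without it r was 0.27. In cKO, r was 0.32 and rho was 0.60 (exact permutation p = 0.5 and 0.242, adjusted p = 0.75 and 0.544). cKO mouse 6 had the lowest *Slc38a4* at an intermediate *Slc2a1* value, and without it r was 0.71. Without the 2 mice of most extreme *Slc2a1* the r was 0.45 in WT and 0.08 in cKO. Pooled, r was -0.07 and rho was 0.29 (permutation p = 0.849 and 0.394, adjusted p = 0.849 and 0.592), r was 0.14 without WT mouse 2 and cKO mouse 3, and it was -0.22 with the splits by Y-coded signal centred (permutation p = 0.48).

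The genes higher in cKO, *Eno2* and *Slc38a4*, varied together among cKO mice more than among WT mice by value. In cKO r was 0.70 and rho was 0.83 (exact permutation p = 0.117 and 0.0583, adjusted p = 0.383 and 0.462), and leaving out any 1 cKO mouse kept r between 0.69 and 0.80. Without cKO mice 3 and 2, r was 0.90. In WT r was -0.36 and rho was -0.60 (exact permutation p = 0.494 and 0.242, adjusted p = 0.75 and 0.544), and r was 0.38 without WT mice 4 and 3. The pooled values were 0.07 and 0.11 (permutation p = 0.812 and 0.764, adjusted p = 0.849 and 0.859), and r was 0.07 without WT mouse 4 and cKO mouse 3. The difference between the genotypes was not tested for this pair.

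**Figure D3:**
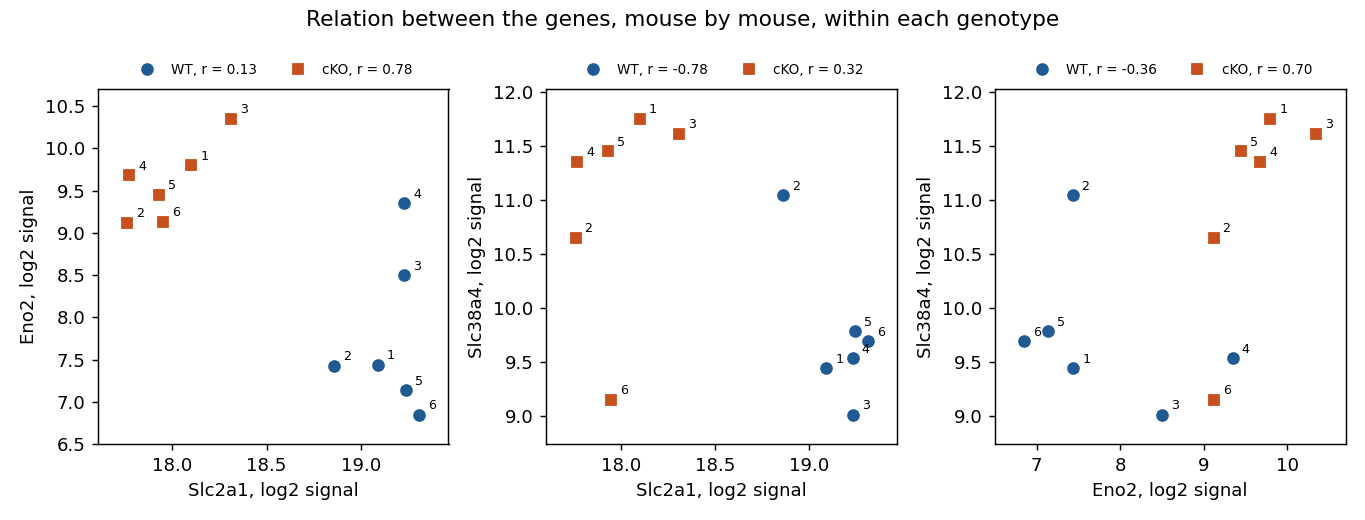
Log2 signals of each pair of genes in 6 WT (circles) and 6 cKO (squares) mice, numbered by mouse, with Pearson's r within each genotype above the panels. cKO mouse 3 is at the upper right of the cKO points for *Slc2a1* and *Eno2* (r = 0.78), and WT mouse 2 stands alone for *Slc2a1* and *Slc38a4* (r = -0.78).

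The same question was put to all 22205 other probe sets with limma, as the slope on the *Slc2a1* value within a genotype. No probe set passed an adjusted p of 0.05, and 986 (4.44%) had an unadjusted p under 0.05. *Eno2* changed by 1.36 log2 units per log2 unit of *Slc2a1* (limma, 95% interval -0.84 to 3.56, adjusted p = 0.909). For *Slc38a4* the slope was -0.32 (95% interval -2.93 to 2.30, adjusted p = 0.986 from limma). With all arrays both intervals hold 0, and both also hold slopes in proportion to *Slc2a1* (1 log2 unit per log2 unit), so these arrays do not tell such slopes from none. Without WT mouse 2 the slope of *Slc38a4* was 1.45. Without WT mouse 6 that of *Eno2* was 1.99 (95% interval 0.02 to 3.97, unadjusted p = 0.0485 and adjusted p = 0.979 from limma), an interval above 0.

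A difference of the slope between the genotypes was tested as an interaction, which no probe set passed at an adjusted p of 0.05, while 2823 (12.7%) had an unadjusted p under 0.05. Without cKO mouse 2, 3 probe sets passed, and without WT mouse 2, 1 passed. The slope of *Slc38a4* was higher in cKO than in WT by 4.78 (95% interval -0.04 to 9.61, unadjusted p = 0.0515 and adjusted p = 0.398 from limma). Without WT mouse 2 this difference was 0.49 (adjusted p = 0.988). Without any other single array it ran from 4.24 to 5.71, with an unadjusted p of 0.00362 without cKO mouse 6 and of 0.182 without cKO mouse 3, and the lowest adjusted p from limma was 0.186. For *Eno2* the slopes differed by 1.01 (limma, 95% interval -3.64 to 5.66, adjusted p = 0.889), and by -0.76 without WT mouse 6.

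**Figure D4:**
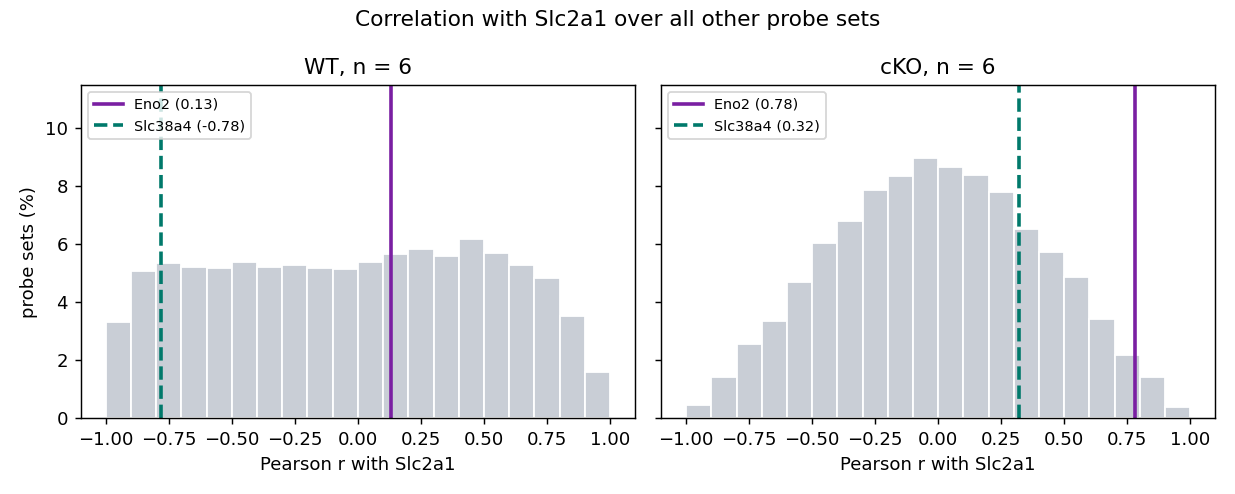
Percentage of the 22205 other probe sets (bars) by their Pearson r with *Slc2a1* over 6 WT or 6 cKO mice, with lines for *Eno2* and *Slc38a4*. Values of r as far from 0 as that of *Slc38a4* in WT were found for 15.4% of probe sets and as that of *Eno2* in cKO for 4.29%.

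The genes were also set against the leading axis of variation shared by autosomal probe sets, taken as the first principal component after centring each genotype and without the 3 genes. It held 27.6% of the variance, and scores ran from -48.3 to 47 in WT and from -18.7 to 17.3 in cKO. The relation of each gene to this axis was examined after the data were seen. The axis sums up probe sets of these same arrays, so other probe sets follow it too. The share of them with an r of a given size was not computed, so the p-values below compare with no relation only. *Slc38a4* had a pooled r of 0.64 and rho of 0.71 with the axis (permutation p = 0.00377 and 0.0197, adjusted over the 3 genes p = 0.0113 and 0.0592), so r passed after adjustment and rho did not. The r was 0.76 within WT and 0.87 within cKO (exact permutation p = 0.0667 and 0.0153, not adjusted, n = 6 each). WT mice 2 and 3, at the ends of the axis, had the highest and the lowest WT value of *Slc38a4*, and cKO mice 1 and 6 had the highest and the lowest cKO value. Without WT mice 2 and 3 the pooled r was 0.44 (permutation p = 0.099), so the relation rests in part on those mice. For *Slc2a1* the pooled r was -0.43 and rho -0.17 (permutation p = 0.137 and 0.614), with r = -0.81 within WT and 0.18 within cKO (exact permutation p = 0.0417 and 0.746, not adjusted), and r = -0.15 without the same mice. For *Eno2* the pooled r was -0.29 and rho 0.31 (permutation p = 0.498 and 0.362), with r = -0.44 within WT and 0.55 within cKO (exact permutation p = 0.378 and 0.236), and r = -0.06 without the same mice. What this axis stands for is not given in the files, and its part in the *Slc38a4* difference was not tested.

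**Figure D5:**
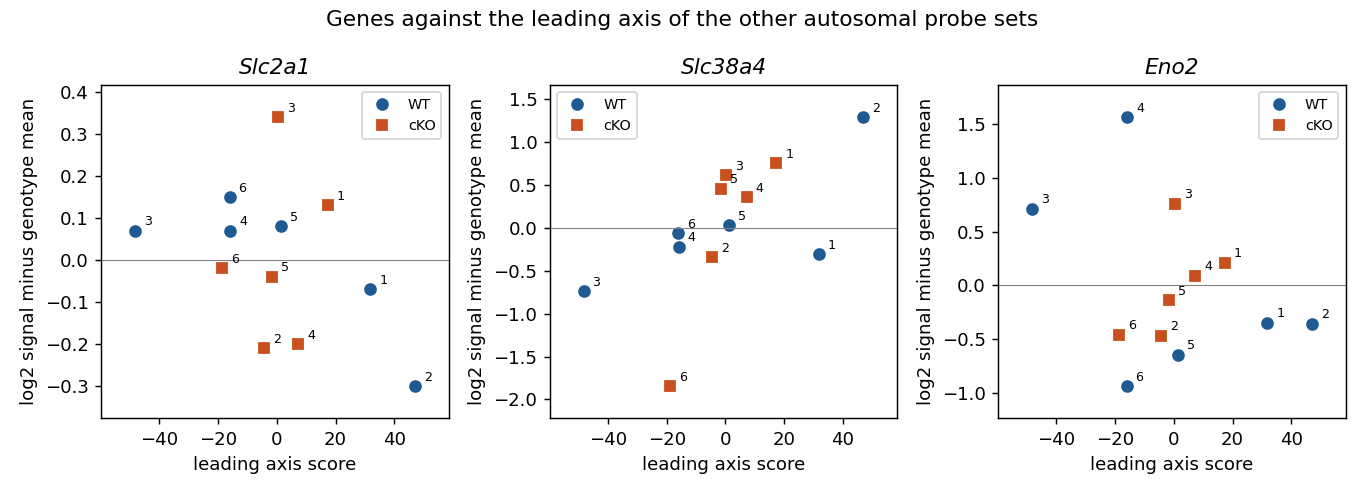
Log2 signal minus the genotype mean of each gene against the score of each array on the leading axis of the other autosomal probe sets (no unit), for 6 WT (circles) and 6 cKO (squares) mice. *Slc38a4* has a positive r with the score (pooled r = 0.64, 0.76 in WT and 0.87 in cKO), with WT mice 3 and 2 at the ends. WT mouse 1, at a score of 31.8, lies below the WT mean of *Slc38a4*.

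Among the 36 other named probe sets, likeness to each gene was measured as the pooled within-genotype r over 12 mice, given as a description. These probe sets were also called between the genotypes on the same arrays. Many unnamed probe sets lay nearer either end, so ranks among all 22205 other probe sets are given. For *Slc2a1* the highest values belonged to *Cxcl12*, a chemokine (0.43), *Sv2c*, a synaptic vesicle glycoprotein (0.41), and *Eno2* (0.34). They ranked only 1934, 2155 and 3234 from the top. The lowest belonged to *Grem1*, a secreted BMP antagonist (-0.64), *Pttg1*, or securin (-0.53), and *Dbp*, a clock-controlled transcription factor (-0.50). Their ranks from the bottom were 340, 1096 and 1439. *Grem1* was opposite to *Slc2a1* in both genotypes (r = -0.75 in WT and -0.61 in cKO), whereas *Sv2c* changed sign between them (0.72 and -0.64).

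*Eno2* was most like *Cxcl12*, with a pooled r of 0.69 that came from 0.64 in WT and 0.97 in cKO and ranked 202 from the top among 22205 probe sets. LOC100504460, an uncharacterized transcript with a Y-coded identifier, followed at 0.64 (rank 357). At the other end were *Gemin5*, a component of the SMN complex (-0.64), *Tyro3*, a receptor tyrosine kinase (-0.61), and *Serpina3n*, a serine protease inhibitor (-0.52). From the bottom these ranked 250, 367 and 886.

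*Slc38a4* was most like *Krtdap*, a gene named for keratinocyte differentiation, with a pooled r of 0.79 (0.48 in WT and 0.93 in cKO) at rank 109. *St8sia1*, a ganglioside sialyltransferase (0.67, rank 655), and *Frmd5*, a FERM domain gene (0.66, rank 725), came next. The lowest values were those of *Tbc1d30*, a TBC domain gene predicted to act on Rab GTPases (-0.55), *Zfp36*, which promotes mRNA decay (-0.54), and *Pim1*, a kinase (-0.53). Ranked from the bottom, they came at 1271, 1462 and 1503. *Tbc1d30* was opposite only by its cKO values (r = -0.83), since r was 0.75 in WT.

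Of the gene lists drawn up for the pathways, the files name *Slc2a1* alone of 12 facilitative glucose transporters, *Eno2* alone of 24 glycolytic enzymes and *Slc38a4* alone of 11 SLC38 amino acid transporters. No member of the lists of sodium-glucose cotransporters, other amino acid transporters, regulators of glycolysis, lactate and proton export, hypoxia-inducible genes or neuron markers is named. The list of hypoxia-inducible genes was drawn up without *Slc2a1* and *Eno2*. The other glucose transporters, the other enolases and neuronal genes were therefore not analysed here, and how they moved beside these genes was not tested.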

How the data were processed

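NP RNA of 6 WT and 6 cKO mice was measured on Mouse Clariom S arrays. The authors normalized the scanned arrays by SST-RMA in Expression Console, which the submitters' processing notes name, and deposited log2 values for 22206 probe sets. Their table of calls from Transcriptome Analysis Console holds fold changes and p-values, which entered only through the choice of the probe sets it lists. Its identifiers and symbols name 39 probe sets, 37 of them with 1 symbol and 2 with several, and the log2 averages the authors deposited differed from Tukey biweight averages (constants 5 and 0.0001) by at most 0.0112. From the log2 values, genotype differences were fitted to every probe set by limma 3.58.1 (R 4.3.3). Slopes on *Slc2a1* and their interaction with genotype were fitted to every other probe set. Genotype was the only other term for the slope, and genotype and the slope were the other terms for the interaction. The slope and interaction fits, but not the genotype fit, were checked on simulated data with noise independent between probe sets. Relations were tested by permutation in Python 3.11.15, with 100000 draws within genotypes for pooled values. Alternatives were other normalizations, the linear scale, medians and biweight averages, omission of dim probe sets, other eBayes options, blocks, the leading axis and leaving out each array. The genes, lists and tests were chosen with earlier results of these data known. Named were the 3 genes, list members with a name and, per gene, the 3 most and 3 least alike named probe sets. The planned comparison of gene lists was not run, since at most 1 member of a list is named. *Dcn*, a fibroblast marker, was the only cell type marker named. Sequences and coordinates come from RefSeq (GRCm38.p6), in which all 3 genes matched, and the authors' annotation is on mm10. The WT mice were littermates of cKO mice, and which mice shared a litter is not given, so litter was not a term.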

Additional observations from a re-analysis of the deposited data

How the results depend on the processing

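The genotype differences kept their direction in all settings, at -1.26 to -1.15 for *Slc2a1*, 1.09 to 1.61 for *Slc38a4* and 1.62 to 2.12 for *Eno2* on leaving out each array. Of 108 relations recomputed under alternatives, 0 passed an adjusted p of 0.05 by permutation (smallest 0.211, adjusted over the 3 pooled pairs alone where a further term was removed) and 2 an unadjusted one, both of *Eno2* with *Slc2a1* in cKO (0.84 on the linear scale and 0.94 without cKO mouse 4). The pooled r of this pair was 0.68 with the Y-coded groups removed. The labels do not say that replicate numbers pair mice, so the numbers were not taken as pairs. Same-numbered arrays deviated with correlations of 0.14 to 0.39 for 5 numbers and -0.26 for number 4, the only one whose arrays differ in Y-coded group. Of 6 WT arrays, 2 correlated best with the cKO array of their own number. These values do not settle whether the numbers are pairs. With the replicate block the pooled r of *Slc38a4* was 0.36 with *Slc2a1* and -0.12 with *Eno2*, both of the opposite sign, while no call changed. The former was also 0.30 with the leading axis removed. In WT, r of *Eno2* with *Slc2a1* was -0.06 with median centring. Leaving out each array in turn, r with *Slc2a1* ran from -0.09 to 0.44 in WT, 0.40 to 0.94 in cKO and 0.17 to 0.53 pooled for *Eno2*, and from -0.87 to 0.27, 0.13 to 0.71 and -0.30 to 0.31 for *Slc38a4*. Between *Eno2* and *Slc38a4* it ran from -0.51 to -0.22 in WT, 0.69 to 0.80 in cKO and -0.15 to 0.19 pooled. Slopes on *Slc2a1* ran from -1.70 to 1.45 for *Slc38a4* and 0.79 to 1.99 for *Eno2*, and their differences between genotypes from 0.49 to 5.71 and -0.76 to 2.89. Probe sets past an adjusted p of 0.05 numbered 0 in every setting for the slope and 0 to 3 for its difference. With 15599 probe sets left after omission of dim ones, mean positions from the top were 0.0342% and 0.265% for *Slc2a1*, 31.9% and 21.3% for *Slc38a4* and 54.8% and 34% for *Eno2* in WT and cKO, which follows from fewer probe sets ranked. Signal over background was not known.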
